A study of Mus musculus with 14 samples.

Results

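TNF and receptors of the TNF superfamily were followed in mouse brain, across the 4 combinations of genotype and treatment of a chemically induced model of neuronopathic Gaucher disease (nGD). The genes were chosen by symbol as the ligand gene Tnf and the receptor genes Tnfrsf1a, Tnfrsf1b, Ltbr, Tnfrsf12a, Tnfrsf21, Tnfrsf25 and Fas. Of these 8 genes, 7 were among the 13866 genes of the count table, and 6 were counted highly enough to be tested. Fas fell under the low count filter and is described by its counts, and Tnfrsf1b was not analysed here.

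RNA from brain tissue of mice aged 19 days was counted by a bulk form of MARSseq, which sequences the 3′ ends of mRNAs. WT + PBS (n = 3) were C57BL/6JOlaHsd mice given phosphate buffered saline, and WT + CBE (n = 3) were mice of the same strain given 100 mg/kg conduritol B-epoxide (CBE), which irreversibly blocks acid beta-glucosidase, the lysosomal enzyme that Gaucher patients lack. MyTrMaSt + PBS (n = 3) and MyTrMaSt + CBE (n = 5) were mice deficient in all of Myd88, Trif (Ticam1), Mavs and Tmem173, which encode the adaptors MyD88, TRIF, MAVS and STING of pathogen recognition receptors, given PBS or the same dose of CBE. The deficiency was not limited to a cell type, CBE was injected into the peritoneum, and brain tissue was homogenised, so a difference cannot be assigned to a cell type.

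TNF is a cytokine that is released in inflamed brain mainly by microglia and signals through TNFR1, the product of Tnfrsf1a, and TNFR2, the product of Tnfrsf1b. Many receptors of this family carry a death domain, which can lead to caspase activation. Many others bind TRAF adaptors directly, which lead to the NF-kappaB transcription factors. TNFR1, Fas, death receptor 6 (Tnfrsf21) and death receptor 3 (Tnfrsf25) belong to the first kind, and TNFR2, the lymphotoxin beta receptor (Ltbr) and the TWEAK receptor Fn14 (Tnfrsf12a) to the second.

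Library totals ranged from 1290616 counts, in WT + PBS replicate 1, to 3704691 counts, and levels are given as CPM, the counts scaled by library size to a common total. Differences were tested by edgeR's quasi-likelihood F test over 11852 genes, and a gene was called differentially expressed (DE) at a Benjamini-Hochberg adjusted p below 0.05 and a change of at least 2-fold. Xist, which is transcribed from the inactive X chromosome of females, had 0 counts in all 3 WT + PBS libraries and in MyTrMaSt + CBE replicate 4, 1 count in WT + CBE replicate 2, and at least 18 counts in each other library, including all 3 of MyTrMaSt + PBS. Sex as read from Xist therefore moved with the groups, and family calls that were lost with the Xist level as a covariate are given beside the result. Counts of the deleted genes remained in MyTrMaSt libraries. Myd88 was at 3.11 to 4.49 CPM in MyTrMaSt + PBS against 9.95 to 17.1 CPM in WT + PBS, whereas Tmem173 was at 5.02 to 7.04 CPM against 0.902 to 2.49 CPM. Which exons were deleted is not given in the sources used here, so 3′ counts are a limited check of the genotype.

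The first question was how the family responded to CBE in WT mice. In WT + CBE versus WT + PBS, Tnf, Tnfrsf1a and Ltbr rose and Tnfrsf25 fell, whereas Tnfrsf12a and Tnfrsf21 were not called. These were 4 of 6 tested genes, against 6.4% of all tested genes called in this comparison. Of all tested genes 5.2% rose and 1.21% fell, against 3 and 1 of the 6. The same 4 genes were those whose 3 WT + CBE libraries did not overlap the 3 WT + PBS libraries, which was the case for 27.9% of all tested genes. Tnf passed the low count filter only through its WT + CBE libraries, and Tnfrsf25 only through WT + PBS. The study had listed Tnfrsf1a and Ltbr from these samples as changed with CBE. The shares of the family given here are therefore a description and not evidence about the family.

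**Figure D1:**
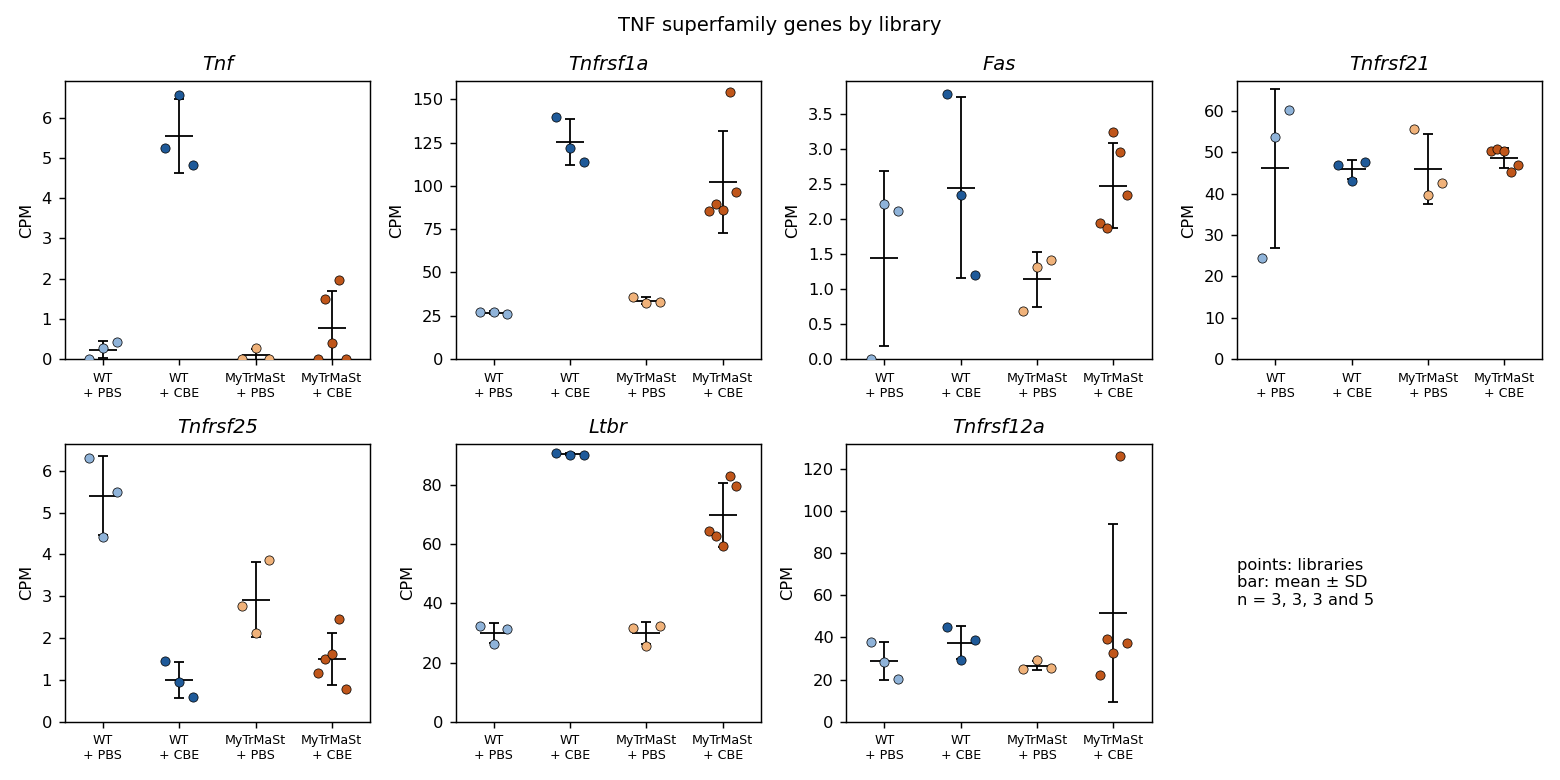
Level of each listed gene of the family in CPM (vertical axis, from 0, scaled per gene) in each of the 14 libraries. Points are libraries, and the bar gives the mean ± SD of each group (n = 3, 3, 3 and 5). Tnfrsf1a and Ltbr are higher in all CBE libraries of both genotypes than in the PBS libraries, Tnf stands high in WT + CBE, and MyTrMaSt + CBE replicate 4 is the single high point for Tnfrsf12a at 126 CPM.

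Tnf, the ligand, lies at chr17:35199381-35202007 on the minus strand (GRCm38, gene annotation GENCODE M21), 1158 bases from Lta and 3061 bases from Ltb, which encode the lymphotoxins. Its counts were 0, 1 and 1 in the WT + PBS libraries and 18, 14 and 8 in the WT + CBE libraries. In MyTrMaSt mice the counts were 0, 1 and 0 after PBS and 0, 4, 1, 4 and 0 after CBE. Tnf was thus at or near 0 in all groups but WT + CBE, whose 3 libraries were above every other library. As levels, these were 4.82, 5.24 and 6.57 CPM in WT + CBE against 0 to 0.422 CPM in WT + PBS, and the highest MyTrMaSt + CBE library had 1.97 CPM. The summed 40 counts of WT + CBE against 2 of WT + PBS gave a ratio of 19.6 after scaling, with an exact 95% interval of 5.09 to 167.8 that covers counting error only. The fitted log2 change was 4.09 (± 1.21 SE, adjusted p = 0.00243), a value that depends on the prior count because WT + PBS was almost empty.

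Tnfrsf1a encodes TNFR1, the receptor of soluble TNF, and lies at chr6:125349362-125362484 on the plus strand. It stood at 27.1, 27.4 and 26.2 CPM in WT + PBS, against 139.9, 121.6 and 113.9 CPM in WT + CBE. Its mean rose from 26.9 ± 0.627 CPM to 125.1 ± 13.4 CPM (SD, n = 3 each), and the groups were far apart relative to their spread. The change was 4.66-fold, with a log2 change of 2.22 (± 0.22 SE, adjusted p = 1.13e-06).

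Ltbr, the receptor for lymphotoxin alpha-beta and LIGHT, lies at chr6:125306571-125313885 on the minus strand, 35477 bases from Tnfrsf1a on the opposite strand, and no annotated exon of another gene overlaps the exons of either gene. Ltbr was at 32.5, 26.2 and 31.2 CPM in WT + PBS, against 90.8, 90.1 and 90.4 CPM in WT + CBE. The 3 WT + CBE libraries were nearly equal, and all stood above WT + PBS. The rise was 3.05-fold, with a log2 change of 1.61 (± 0.18 SE, adjusted p = 5.3e-06).

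The sequences just before the RefSeq starts of Tnf, Tnfrsf1a and Ltbr, the members that rose with CBE, are shown as a description, 5′ to 3′ on the strand of each gene (RefSeq, GRCm38.p6). Capitals mark GC boxes (GGGCGG on either strand) and TATA boxes (TATAAA). The Tnfrsf1a window was shortened where it met an annotated exon, and it lies inside the GENCODE span of the gene, because the RefSeq start is downstream of the GENCODE 5′ end. The sequence before that 5′ end is not shown.
Tnf, chr17:35202008-35202257, minus strand: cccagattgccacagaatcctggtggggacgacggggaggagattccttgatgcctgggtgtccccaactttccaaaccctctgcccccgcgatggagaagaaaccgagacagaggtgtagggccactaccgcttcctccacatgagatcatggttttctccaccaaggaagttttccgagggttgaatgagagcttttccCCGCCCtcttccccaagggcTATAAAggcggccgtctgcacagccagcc
Tnfrsf1a, chr6:125349509-125349722, plus strand: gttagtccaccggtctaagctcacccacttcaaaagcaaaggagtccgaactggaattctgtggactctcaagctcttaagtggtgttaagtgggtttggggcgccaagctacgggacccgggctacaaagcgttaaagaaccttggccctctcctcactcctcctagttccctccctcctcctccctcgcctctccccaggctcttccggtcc
Ltbr, chr6:125313886-125314135, minus strand: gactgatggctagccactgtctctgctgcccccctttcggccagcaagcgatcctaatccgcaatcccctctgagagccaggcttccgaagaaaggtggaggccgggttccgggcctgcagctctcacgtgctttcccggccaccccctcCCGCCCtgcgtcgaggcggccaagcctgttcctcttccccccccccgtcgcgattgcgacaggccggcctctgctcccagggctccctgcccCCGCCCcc

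The Tnf window held 1 TATA box and 1 GC box, the Ltbr window held 2 GC boxes and no TATA box, and the window before the downstream RefSeq start of Tnfrsf1a held neither, which says nothing of the sequence before the GENCODE 5′ end. Within 250 bases before the start, on both strands, a GC box was present in 32.7% of 32851 mouse promoters and a TATA box in 12.4%. None of these 3 windows held the AP-1 letters TGANTCA (6.75% of promoters), the core of the interferon response element (2.98%) or the NF-kappaB consensus (7.25%). Among the windows of all 8 genes, AP-1 letters were found at Fas, the interferon response core at Tnfrsf1b and the NF-kappaB consensus at a downstream start of Tnfrsf25. A match, or the lack of one, in so short a window is a description of the letters only.

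Tnfrsf25, or death receptor 3, is the receptor for TL1A and is best known from T cells. It lies at chr4:152115934-152120119 on the plus strand. Its counts were 7, 16 and 13 in WT + PBS, against 5, 2 and 1 in WT + CBE, or 6.32, 4.42 and 5.48 CPM against 1.45, 0.939 and 0.603 CPM. All 3 WT + CBE libraries were below WT + PBS, but these levels rest on few reads. Tnfrsf25 fell by 2.19 on the log2 scale (± 0.51 SE, adjusted p = 0.0039). With the Xist level as a covariate, Tnfrsf25 fell by 1.81 and was no longer called (adjusted p = 0.107). Of 9 T and NK cell marker genes, 4 were listed, and their summed level was 8.29 to 15.3 CPM in WT + PBS and 9.86 to 18.7 CPM in WT + CBE, which overlap. This sum was mostly Cd4, with means of 8.14 and 8.34 CPM, and Cd3e had 1 and 6 summed counts. These markers are too few and too low to follow T cells, and their part in the Tnfrsf25 value was not tested.

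Tnfrsf21 encodes death receptor 6, which is expressed by neurons and glia. It was at 24.4, 53.6 and 60.3 CPM in WT + PBS, against 46.8, 43.2 and 47.6 CPM in WT + CBE. The low WT + PBS value came from replicate 1, the library with the lowest total, and the groups overlapped. The log2 change was -0.06 (± 0.23 SE, adjusted p = 0.917), and its sign turned when WT + PBS replicate 2 or 3 was left out.

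Tnfrsf12a encodes Fn14, which is induced by growth factors and injury and binds the ligand TWEAK. It was at 37.9, 28.2 and 20.2 CPM in WT + PBS, against 44.8, 29.1 and 38.6 CPM in WT + CBE, and the groups overlapped. Its log2 change was 0.43 (± 0.48 SE, adjusted p = 0.637). With the Xist level as a covariate it was 1.39 (adjusted p = 0.14).

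Fas encodes the receptor of Fas ligand and lies at chr19:34290666-34327772 on the plus strand. Its counts were 0, 8 and 5 in WT + PBS, against 13, 5 and 2 in WT + CBE, so the groups overlapped. The ratio of the summed counts was 1.51, with an exact 95% counting interval of 0.715 to 3.31, and in a fit without the low count filter the log2 change was 0.58 (adjusted p = 0.603). At this depth no change of Fas was detectable.

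**Figure D2:**
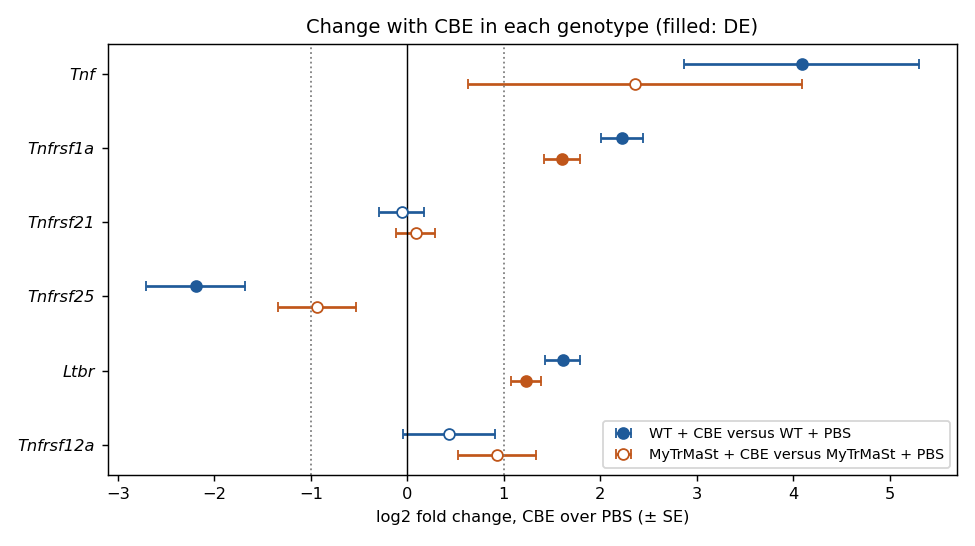
Log2 change of CBE over PBS (horizontal axis) for the 6 tested genes, in WT (blue) and in MyTrMaSt mice (orange). Bars are ± SE, filled points are DE and dotted lines mark a 2-fold change. Tnfrsf1a and Ltbr are filled in both genotypes, and Tnf and Tnfrsf25 in WT, where their points lie further from 0.

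The second question was whether the response was seen in mice without the 4 adaptors. In MyTrMaSt + CBE versus MyTrMaSt + PBS, Tnfrsf1a and Ltbr rose, and the other 4 tested genes were not called. This was 2 of 6 tested genes, against 3.89% of all tested genes called and 3.23% that rose. The study had listed both genes from these samples as changed in both genotypes, so this share in part restates that choice. The libraries of these 2 genes did not overlap between MyTrMaSt + CBE and MyTrMaSt + PBS, as was so for 22.5% of all tested genes. Both calls were lost in a test against a 2-fold change.

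Tnfrsf1a was at 35.9, 32.2 and 32.8 CPM in MyTrMaSt + PBS and at 85.3, 89.4, 85.9, 154.1 and 96.3 CPM in MyTrMaSt + CBE. Replicate 4, the only MyTrMaSt + CBE library without Xist counts, stood well above the other 4, which were themselves all above MyTrMaSt + PBS. The rise was 3.03-fold, with a log2 change of 1.60 (± 0.19 SE, adjusted p = 2.99e-05). Without replicate 4 it was 1.41 (adjusted p = 5.19e-06).

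Ltbr was at 31.8, 25.6 and 32.4 CPM in MyTrMaSt + PBS and at 64.7, 62.7, 59.6, 83.2 and 79.9 CPM in MyTrMaSt + CBE. All 5 CBE libraries were above all PBS libraries. Ltbr rose 2.34-fold, with a log2 change of 1.23 (± 0.16 SE, adjusted p = 7.41e-05).

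Tnf in MyTrMaSt mice rested on 9 summed counts after CBE and 1 after PBS. The ratio was 6.98, with an exact 95% counting interval of 0.967 to 305.8, and the libraries overlapped. The log2 change was 2.36 (± 1.73 SE, adjusted p = 0.226), so neither a rise nor its absence could be shown at this depth. With single libraries left out, the fitted value ranged from 1.81 to 3.97. The highest value came without MyTrMaSt + PBS replicate 2, the library that held the 1 count (adjusted p = 0.231). The lowest value under the other alternatives was 1.38.

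Tnfrsf25 was at 2.76, 2.11 and 3.87 CPM after PBS in MyTrMaSt mice and at 1.17, 1.5, 1.62, 2.46 and 0.783 CPM in MyTrMaSt + CBE. The groups overlapped by 1 library, and the log2 change was -0.94 (± 0.41 SE, adjusted p = 0.157). Tnfrsf12a was at 24.9, 29.1 and 25.7 CPM in MyTrMaSt + PBS and at 22.2, 39.1, 32.4, 126.0 and 37.6 CPM in MyTrMaSt + CBE. Its log2 change of 0.93 (± 0.41 SE, adjusted p = 0.183) rested on replicate 4, without which it was 0.30. Tnfrsf21 ranged from 39.6 to 55.6 CPM in MyTrMaSt + PBS and from 45.3 to 50.7 CPM in MyTrMaSt + CBE, with a log2 change of 0.09 (± 0.20 SE, adjusted p = 0.835). Fas had 2, 5 and 4 counts after PBS and 5, 5, 8, 6 and 6 after CBE. The ratio of its summed counts was 2.11, with an exact 95% counting interval of 1.03 to 4.68. In the fit without the low count filter its log2 change was 1.06 (adjusted p = 0.239), so Fas was not called, although all 5 CBE libraries, at 1.88 to 3.24 CPM, were above the 3 PBS libraries, at 0.691 to 1.41 CPM.

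The genotypes were then compared directly after CBE. In MyTrMaSt + CBE versus WT + CBE, Tnf was lower and was the 1 gene called of 6 tested, against 2.01% of all tested genes called and 1.93% called lower. Tnf was tested only because its WT + CBE libraries passed the low count filter, so this share is a description. All 5 MyTrMaSt + CBE libraries, at 0 to 1.97 CPM, were below the 3 WT + CBE libraries. The log2 change was -2.83 (± 0.65 SE, adjusted p = 0.00611), and the summed counts were 7.55-fold higher in WT + CBE, with an exact 95% counting interval of 3.61 to 17.7. Among libraries with at least 18 Xist counts, Tnf was at 4.82 and 5.24 CPM in WT + CBE and at 0 to 1.5 CPM in MyTrMaSt + CBE. These are few libraries, no test was run on them alone, and the part of sex was not tested there. In a test against a 2-fold change, in place of a cutoff on the estimate, the adjusted p was 0.0642.

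Ltbr was also below WT + CBE in all 5 MyTrMaSt + CBE libraries, at 59.6 to 83.2 against 90.1 to 90.8 CPM. Its difference of -0.37 on the log2 scale (± 0.15 SE) had an adjusted p of 0.4. With Tnf this made 2 of 6 tested genes without overlap, whereas 9.96% of all tested genes had none and 6.02% were lower in this way. Tnfrsf1a overlapped between the CBE groups because of MyTrMaSt + CBE replicate 4, and its log2 change was -0.30 (± 0.18 SE, adjusted p = 0.811). Without replicate 4 it was -0.49 (adjusted p = 0.0478), under the 2-fold limit. Tnfrsf12a, Tnfrsf21 and Tnfrsf25 overlapped between the CBE groups and were not called.

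Whether CBE acted differently in the genotypes was tested as an interaction, for which 0.489% of all tested genes had an adjusted p below 0.05. By edgeR and by DESeq2, 0 of the 6 family genes did, and 1 had an unadjusted p below 0.05 in edgeR's test. That gene was Tnfrsf1a, with an interaction of -0.62 on the log2 scale (± 0.29 SE, adjusted p = 0.385). The interaction of Ltbr was -0.38 (± 0.24 SE, adjusted p = 0.51), that of Tnfrsf25 was 1.26 (± 0.65 SE, adjusted p = 0.441), and that of Tnf was -1.73 with an SE of 2.11 (adjusted p = 0.805). The Tnf interaction ran from -2.28 to -0.12 with single libraries left out, the latter without MyTrMaSt + PBS replicate 2. The Tnf response was therefore called in WT mice alone without being shown to differ from that of MyTrMaSt mice, although its level after CBE differed.

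Lastly, the genotypes were compared without CBE. In MyTrMaSt + PBS versus WT + PBS, 0 of 6 genes were called by edgeR and by DESeq2, against 0.16% of all tested genes in edgeR's test, and 1 had an unadjusted p below 0.05. That gene was Tnfrsf25, lower in all MyTrMaSt + PBS libraries by a log2 change of -0.84 (± 0.37 SE, adjusted p = 0.259). Tnfrsf1a was higher in all MyTrMaSt + PBS libraries, by 0.32 (± 0.22 SE, adjusted p = 0.458). The lack of overlap of these 2 genes compares with 20.2% of all tested genes, and in this comparison the Xist level differed completely between the groups, so sex and genotype cannot be told apart.

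Over the 14 libraries, the pattern of Tnfrsf1a was close to that of Ltbr (Pearson r = 0.973 of log2 CPM). The genes most like Tnfrsf1a were Ccl3 (r = 0.979), a microglial chemokine, Cnn3 (0.974) and Aspg (0.974). Those most like Ltbr were Npl (0.982), Lilrb4a (0.979) and Cd68 (0.978), a lysosomal protein of phagocytes. Tnf was most like Nlrc5 (0.907), Ptpn1 (0.9) and Alg5 (0.881), and its r with Tnfrsf1a was 0.665. Tnfrsf12a was most like Coro1c (0.902), Gadd45b (0.891) and Ski (0.872). Tnfrsf21 was most like Actr10 (0.94), Ubqln2 (0.926) and Nedd4 (0.925), and Tnfrsf25 was most like Lpgat1 (0.928), Snapc1 (0.927) and Uchl1 (0.9). These values describe 14 libraries that share their groups and depth.

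Cell type markers moved with treatment in the same libraries. The summed level of 10 microglia markers was 983.7 to 1153.6 CPM in WT + CBE, against 273.4 to 352.7 CPM after PBS. In MyTrMaSt mice it was 691.7 to 806.0 CPM after CBE and 299.4 to 321.8 CPM after PBS. Of the 10, 6 rose in WT mice and 5 in MyTrMaSt mice, with Cd68 among them, whereas P2ry12, Tmem119 and Siglech were not called in either. Csf1r was under the 2-fold limit, with changes of 1.98-fold in WT mice (adjusted p = 0.000797) and 1.86-fold in MyTrMaSt mice (adjusted p = 0.00151). MyTrMaSt + CBE replicate 4, the highest library for Tnfrsf1a, had the lowest microglia sum among the 5. The sum of 9 astrocyte markers was 2947.4 to 3571.1 CPM in WT + PBS against 4152.7 to 4523.5 CPM in WT + CBE, and in MyTrMaSt mice 3486.0 to 3906.7 CPM after PBS against 4555.6 to 4932.2 CPM after CBE. Of the 9, Gfap, Aqp4 and Sox9 rose in WT mice and Gfap in MyTrMaSt mice. Slc1a2, the highest of them, was at 1656.9 to 2251.9 CPM in WT + PBS and 1808.8 to 1973.6 CPM in WT + CBE, and S100b was lower in all WT + CBE libraries, by a log2 change of -0.57 (adjusted p = 0.0301), under the 2-fold limit. The sum of 8 oligodendrocyte markers was 10950.9 to 14162.0 CPM in WT + CBE, below the 18051.9 to 21085.9 CPM of WT + PBS, and in MyTrMaSt mice it was 13624.9 to 18049.5 CPM after CBE and 18255.8 to 21491.0 CPM after PBS. Mbp was the largest part of this sum, at 9374.8 to 12836.5 CPM in WT + PBS. In WT mice 6 of the 8 had an adjusted p below 0.05, but Cldn11 was the 1 called. In MyTrMaSt mice 0 of the 8 had an adjusted p below 0.05, and Mag was nearly unchanged (1.03-fold). The sum of 8 neuron markers was 4136.9 to 4843.6 CPM in MyTrMaSt + CBE, below the 5393.7 to 6312.1 CPM of its controls. In WT mice it was 3754.8 to 4086.9 CPM after CBE, and 5301.9 and 5215.5 CPM after PBS but 3628.8 CPM in WT + PBS replicate 1. Of the 8 neuron markers, 0 were called in either genotype, and 2 had a positive log2 change in WT mice. The summed levels of 7 endothelial markers overlapped between treatments in both genotypes. Of the 6 tested, Tek was called in MyTrMaSt mice, at 12.9 to 14.8 CPM after PBS and 2.46 to 7.7 CPM after CBE (2.55-fold lower, adjusted p = 0.00442). In the same mice, Flt1 after CBE lay below its controls (adjusted p = 0.0836), and Ly6c1 lay above its controls and was 1.57-fold higher (adjusted p = 0.0231), under the 2-fold limit. Of 6 neutrophil markers 2 were listed, and their sum was 5.42 to 8.73 CPM in WT + CBE and 1.27 to 1.80 CPM in its controls, and 2.63 to 5.91 CPM in MyTrMaSt + CBE and 1.32 to 2.11 CPM in its controls. The 1 tested, Csf3r, named after its values were seen, rose 5.31-fold in WT mice (adjusted p = 0.00382) and 3.43-fold in MyTrMaSt mice (adjusted p = 0.0367). The other listed marker, S100a9, overlapped between treatments in both genotypes. It was at 0 to 0.422 CPM in WT + PBS and 0 to 1.81 CPM in WT + CBE, and at 0.264 to 1.38 CPM in MyTrMaSt + PBS and 0 to 2.84 CPM in MyTrMaSt + CBE. The part of these shifts in the values of Tnf, Tnfrsf1a and Ltbr was not tested, and in bulk tissue more cells of a type and more RNA per cell cannot be told apart.

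**Figure D3:**
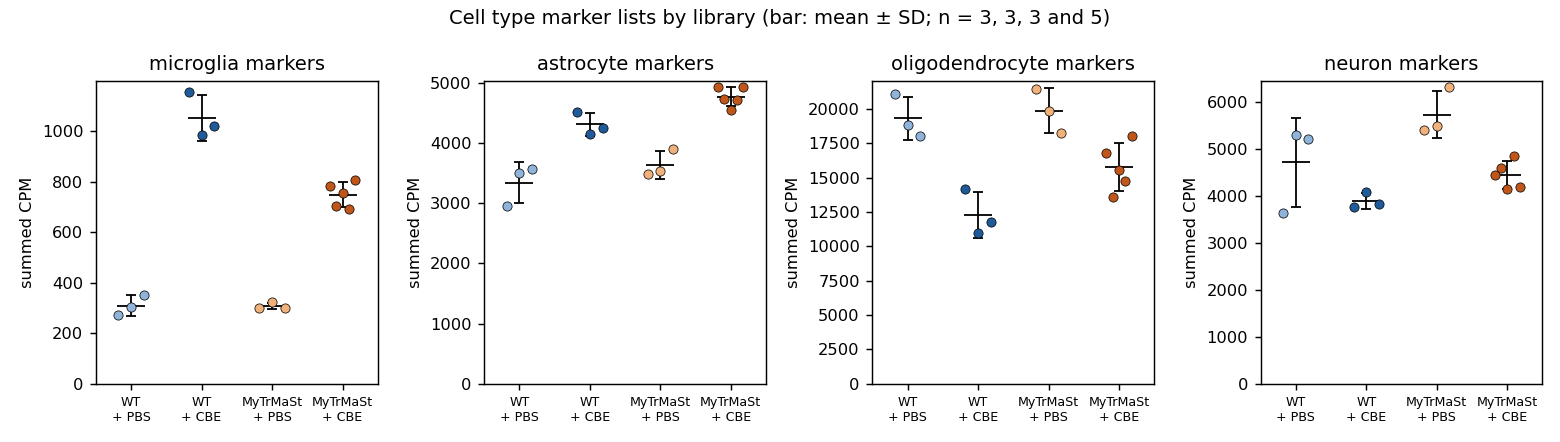
Summed CPM (vertical axis, from 0) of 4 lists of brain cell type markers in each library. Points are libraries, and bars are the mean ± SD of each group (n = 3, 3, 3 and 5). Microglia and astrocyte sums are higher in every CBE library than in any PBS library.

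The wider pathway was described with 4 lists of genes. Of 17 other ligands, 7 were listed and 3 tested, and 1 rose in WT mice and 0 in MyTrMaSt mice, against 5.2% and 3.23% of all tested genes. This was Tnfsf13b, which encodes the B cell survival factor BAFF, at 0 to 1.69 CPM in WT + PBS and 4.82 to 6.40 CPM in WT + CBE (log2 change 2.16, SE 0.56, adjusted p = 0.00876). In MyTrMaSt mice its log2 change was 0.77 (adjusted p = 0.335). Of 21 other receptors, 8 were listed and 4 tested. In WT mice, 1 rose, Tnfrsf11b, the decoy receptor osteoprotegerin, which was at 1.11 to 1.80 CPM after PBS and 4.82 to 9.60 CPM after CBE (log2 change 2.56, SE 0.55, adjusted p = 0.00161). In MyTrMaSt mice it was at 3.45 to 3.87 CPM after PBS and 2.43 to 7.83 CPM after CBE, with a log2 change of 0.45 (adjusted p = 0.475).

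The ligands of 2 receptors described above were looked up after the results were known. Tnfsf12, which encodes TWEAK, the ligand of Fn14, was at 25.7 to 28.3 CPM in WT + PBS and 38.6 to 43.4 CPM in WT + CBE, where its log2 change was 0.61 (± 0.21 SE, adjusted p = 0.0768). Among MyTrMaSt mice the change was 0.67 (± 0.19 SE, adjusted p = 0.0366), under the 2-fold limit. Ltb, which encodes the lymphotoxin beta subunit bound by Ltbr, had 16 summed counts after CBE and 9 after PBS in WT mice, and 22 and 3 in MyTrMaSt mice, too few to pass the filter.

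Of 37 genes that act next to the receptors, 36 were listed and 30 tested. In WT mice 4 rose, against 5.2% of all tested genes, and 0 fell, with a median log2 change of 0.344 over the 30 genes and -0.018 over all tested genes. The 4 were Tnfaip3, which encodes the NF-kappaB inhibitor A20, Casp8, the caspase of death receptors, Birc3, which encodes the ubiquitin ligase cIAP2, and Cflar, which encodes the caspase-8 inhibitor cFLIP and was named after its values were seen. Tnfaip3 was at 4.14 to 5.48 CPM in WT + PBS and 11.6 to 15.1 CPM in WT + CBE (log2 change 1.42, SE 0.31, adjusted p = 0.00476). Casp8 rose by 1.28 on the log2 scale (± 0.30 SE, adjusted p = 0.00715), Birc3 by 1.99 (± 0.59 SE, adjusted p = 0.0264) and Cflar by 1.0 (± 0.32 SE, adjusted p = 0.0477). In MyTrMaSt mice 0 of the 30 genes were called by edgeR, against 3.89% of all tested genes, and 1 had an adjusted p below 0.05. There the log2 changes were 0.21 for Tnfaip3 (adjusted p = 0.702), 0.09 for Casp8 (0.888), 0.82 for Birc3 (0.361) and 0.63 for Cflar (0.182). Tnfaip3 was lower in MyTrMaSt + CBE than in WT + CBE, at 3.90 to 7.14 CPM (log2 change -1.24, SE 0.26, adjusted p = 0.00794). The interactions of Tnfaip3 (-1.21, adjusted p = 0.273) and Casp8 (-1.19, adjusted p = 0.243) did not pass the threshold.

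The last list held 33 genes induced by or named after TNF, of which 28 were listed and 25 tested. In WT mice 16 rose and 1 fell, against 5.2% and 1.21% of all tested genes, with a median log2 change of 1.677, and in MyTrMaSt mice 14 rose, against 3.23%, and 0 fell, with a median of 1.143 against 0.005 over all tested genes. The study had picked 9 of the 33 from these same samples, so the list's direction is not independent evidence. Of the 16 tested genes outside that choice, 7 rose and 1 fell in WT mice, and 6 rose in MyTrMaSt mice. The 1 that fell was Tnfaip8l1, named after its values were seen, by a log2 change of -1.02 (adjusted p = 0.048). In MyTrMaSt + CBE versus WT + CBE, 8 of the 25 were lower, against 1.93% of all tested genes, and 0 were higher. Of the 16 outside the study's choice, 3 were lower, namely Lcn2, Icam1 and Relb, and the other 5 were genes that the study had picked, for a lower level in MyTrMaSt mice.

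Lcn2, which encodes the iron-siderophore carrier lipocalin 2 made by reactive astrocytes, was at 0.844 to 4.51 CPM in WT + PBS and 380.3 to 749.6 CPM in WT + CBE (log2 change 7.52, SE 0.62, adjusted p = 2.21e-08). In MyTrMaSt mice it was at 0 to 7.40 CPM after PBS and 15.2 to 25.5 CPM after CBE (log2 change 2.68, SE 0.53, adjusted p = 0.00215). Lcn2 was the single gene of the 62 tested on the 4 lists with an interaction that passed the threshold, of -4.84 on the log2 scale (± 0.82 SE, adjusted p = 0.00847). Steap4, a metalloreductase, rose by 5.62 on the log2 scale in WT mice and by 1.94 in MyTrMaSt mice, with an interaction of -3.68 (± 0.81 SE, adjusted p = 0.0626). Tnfaip2 rose by 5.26 and 1.96, with an interaction of -3.29 (± 0.86 SE, adjusted p = 0.142).

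Slamf9, Tnfaip8l2 and Bcl3 were also called in both genotypes. Slamf9, a receptor of the SLAM family, was at 21.1 to 22.1 CPM in WT + CBE, against 0.422 to 3.61 CPM in the WT controls, and at 10.1 to 15.8 CPM in MyTrMaSt + CBE, against 0.691 to 0.792 CPM in the MyTrMaSt controls. Its log2 changes were 3.87 (± 0.46 SE) and 3.93 (± 0.52 SE), with an interaction of 0.06 (± 0.69 SE, adjusted p = 0.974). Tnfaip8l2, which encodes the immune regulator TIPE2, rose by 2.01 (± 0.30 SE) and 2.02 (± 0.31 SE), with an interaction of 0.01 (± 0.44 SE, adjusted p = 0.991). Its level was nevertheless lower in all MyTrMaSt libraries than in the WT libraries of the same treatment. The difference was -0.98 on the log2 scale after CBE (adjusted p = 0.0256), just under the 2-fold limit, and -0.99 after PBS (adjusted p = 0.194). Slamf9 was also lower in all MyTrMaSt + CBE libraries than in WT + CBE, with a difference of -0.86 (adjusted p = 0.0613). Bcl3, which encodes a nuclear regulator of NF-kappaB, rose by 3.98 (± 0.50 SE) and 2.89 (± 0.42 SE), with an interaction of -1.09 (± 0.65 SE, adjusted p = 0.487). An interaction that misses the threshold does not show that responses were equal. The study had chosen Slamf9, Tnfaip8l2, Tnfrsf1a and Ltbr on these samples for little change between the genotypes, and Steap4 and Tnfaip2 for a large one, so the interactions of these genes in part restate that choice and are not independent evidence.

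**Figure D4:**
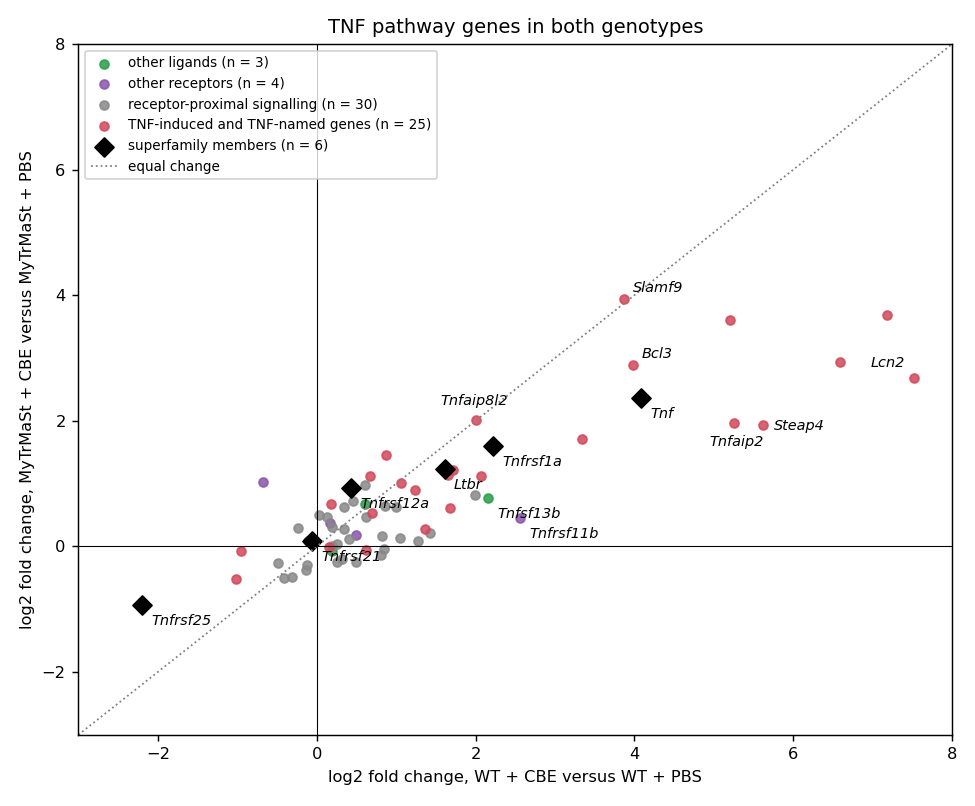
Log2 change with CBE in WT mice (horizontal axis) and in MyTrMaSt mice (vertical axis) for the 6 tested family genes (black diamonds) and the 62 tested genes of the 4 pathway lists (coloured points). The dotted line marks equal change. Lcn2 lies well below the line. Steap4 and Tnfaip2, also well below it, Slamf9 and Tnfaip8l2, on it, and Tnfrsf1a and Ltbr, a little below it, were chosen by the study on these samples for their large or small difference between genotypes, so their places are a description.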

How the data were processed

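Bulk MARSseq libraries were made from brain tissue of 14 mice in 4 groups, as labelled. The deposited values are raw read counts per gene. The authors aligned reads to mm10 with hisat and kept uniquely mapped reads, and the submitters' processing notes name cutadapt and HTSeq. The use of molecular identifiers and strand and the gene annotation are not given in the sources used here. Litters and sex are not given in the labels, and p-values measure the spread between these libraries.

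Counts of all 14 libraries were fitted together (R 4.3.3, edgeR 4.0.16, TMM, filterByExpr, glmQLFit and glmQLFTest, 1 mean per group), with Benjamini-Hochberg adjustment over the 11852 genes that passed the filter. CPM used TMM-scaled library sizes. The SE is that of the contrast in the fitted model without a prior count, whereas the log2 change includes edgeR's prior count. The scripts were tested on simulated data. At these depths a count of 0 allows 3 counts, or 0.793 to 2.71 CPM. Pearson r used log2 CPM with a prior count of 0.5.

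Genes named were all 8 members, from each pathway list the 3 called genes with the lowest adjusted p in each genotype and any with an interaction below 0.05, and the 3 genes most like each tested member. Exceptions are stated. The members and lists were chosen with earlier results of these data known. Alternatives were RLE size factors, DESeq2 1.42.0, limma 3.58.1 voom, a test against 2-fold, adjusted p alone, no filter, at least 10 counts in every library, only the groups compared, Xist as a covariate, the replicate number as a block, and each library left out.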

Additional observations from a re-analysis of the deposited data

Results flagged for a closer look

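MyTrMaSt + CBE replicate 4 stood apart from the other 4 libraries of its group for 3 of the 18 genes examined, by Dixon's test (critical value 0.71 for 5 samples), which flags about 1 in 20 groups by chance. Tnfrsf1a was at 154.1 CPM there and at 85.3 to 96.3 CPM in the others. Tnfrsf12a was at 126.0 CPM and at 22.2 to 39.1 CPM in the others. Bcl3 was at 15.3 CPM, the highest of the group, whose lowest library had 6.48 CPM. This library had 0 Xist counts and the lowest sum of microglia markers of its group, 691.7 CPM. The part of sex in these values was not tested within the group, which held 1 such library.

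The response of Lcn2 to CBE differed between the genotypes, with an interaction of -4.84 on the log2 scale (edgeR's quasi-likelihood test, adjusted p = 0.00847). All 5 MyTrMaSt + CBE libraries, at 15.2 to 25.5 CPM, were below the 3 WT + CBE libraries, at 380.3 to 749.6 CPM.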

How the results depend on the processing

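With a test against 2-fold, the other pathway genes called went from 23 to 14 in WT mice and from 14 to 5 in MyTrMaSt mice, and the family genes called went from 2 to 0 in MyTrMaSt mice and from 1 to 0 between the CBE groups. With at least 10 counts in every library, fewer genes were tested, and the counts were 2 of the 4 family genes and 3 other pathway genes in WT mice, 3 other pathway genes in MyTrMaSt mice and 0 family genes between the CBE groups. With each library left out in turn, family calls stayed at 4, 2, 1, 0 and 0 over the 5 comparisons, and the other pathway genes called ranged from 18 to 23 in WT mice and from 9 to 15 in MyTrMaSt mice, where the 9 came without MyTrMaSt + PBS replicate 2. In DESeq2, 133 genes passed the interaction threshold, against 58 in edgeR, and 115 against 19 were called between the PBS groups. With Xist as a covariate these counts were 11 and 3. With single libraries left out, the interaction count ranged from 24, without MyTrMaSt + PBS replicate 3, to 105, without WT + PBS replicate 1, and the count between the PBS groups from 5, without MyTrMaSt + PBS replicate 2, to 303, without WT + PBS replicate 2. It was 62 without WT + PBS replicate 3. The Tnf difference between the PBS groups was -1.11, -0.42 with Xist as a covariate and -2.72 without MyTrMaSt + PBS replicate 2. Single calls were lost against 2-fold for Tnf between the CBE groups (adjusted p = 0.0642), for Tnfrsf1a (0.0511) and Ltbr (1.0) in MyTrMaSt mice and for Tnfrsf25 in WT mice (0.085), and for Tnfrsf25 also with Xist as a covariate (0.107). The cause was not tested.

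Directions turned only for values that were not called. With libraries left out, Ltbr between the PBS groups ranged from -0.0912 to 0.11 on the log2 scale. Tnfrsf12a ranged from -0.20 to 0.62 between the CBE groups, from -0.28 to 0.11 between the PBS groups and from -0.14 to 0.70 for the interaction. Tnfrsf21 ranged from -0.30 to 0.15 in WT mice, from -0.0049 to 0.25 in MyTrMaSt mice, from -0.32 to 0.14 between the PBS groups and from -0.059 to 0.39 for the interaction. With Xist as a covariate, Tnfrsf12a was at 1.02 between the PBS groups and -0.88 for the interaction.

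Libraries with the same replicate number showed no clear shared deviation. Over 18 such pairs, r ranged from -0.172 to 0.165, with 3 over 0.1. Pairs with different numbers ranged from -0.215 to 0.22. With so few libraries per group, these values cannot exclude that the numbers pair the libraries. With the replicate block, 9 other pathway genes were called in MyTrMaSt mice, and Tnfrsf12a was at -0.27 between the CBE groups and -0.20 for the interaction. The block left the counts of family genes as they were. All genes called went from 461 to 292 in MyTrMaSt mice.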
